A study of Mus musculus with 9 samples.

Results

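The immediate early genes are genes whose transcription starts within minutes of a stimulus and needs no new protein. Here they are 10 genes, Ccn1, Btg2, Fos, Fosb, Jun, Junb, Egr1, Arc, Nr4a1 and Ier2, chosen by name and found by matching Ensembl gene IDs to symbols. All 10 were among the 14831 genes of the authors' table, and 9 passed the filter on low values used for testing (14430 genes in all). Ccn1 and Btg2 belong to the set because an earlier analysis of these same data found them higher after the C9orf72 oligonucleotide, so their rise is the starting point and not a finding, and the question was whether it extends to the Fos, Jun, Egr and Nr4a genes.

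Spinal cords were taken from female wild-type mice of the C57Bl/6 strain, 10 weeks old, 2 weeks after a 10 µl injection into the brain's right lateral ventricle. An antisense oligonucleotide (ASO) is a short, chemically modified strand that binds a matching RNA and lowers its level. The mice had received 500 µg of an ASO against mouse C9orf72 (number 571883; 3 libraries), 500 µg of a control ASO (number 456835; 3 libraries) or saline (3 libraries). A repeat expansion in C9orf72 underlies many inherited cases of frontotemporal dementia and amyotrophic lateral sclerosis, and the comparison shows the cord's RNA when the gene's transcript is lowered. The C9orf72 transcript lay at 2.68, 3.40 and 3.12 RPKM after the C9orf72 ASO, against 11.2, 11.7 and 10.6 RPKM after the control ASO and 10.5, 11.4 and 11.5 RPKM after saline, a log2 difference of -1.84 from the control ASO (SE 0.08, adjusted p = 1.8e-06, limma). Library depth, read from the steps in the values of short genes, was about 90.3 to 124.2 M reads. RPKM are reads per kilobase of transcript, scaled to library size, and the authors' table holds 0.1 in place of every value under 0.5.

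In neurons and glia, calcium entry and growth factor receptors activate kinases that phosphorylate transcription factors already bound at immediate early promoters, among them CREB at cyclic AMP response elements and the ternary complex around serum response factor. The RNAs made are short-lived, so that their level follows recent stimulation. In spinal cord, Fos is best known as a marker of dorsal horn neurons activated by pain, and Ccn1 and Btg2 respond more to growth factors, matrix tension and stress.

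The promoters of 7 of the 10 genes were matched in RefSeq's sequences of mouse build GRCm38.p6 (Ccn1, Btg2, Fos, Fosb, Jun, Junb and Nr4a1). Shown are the 250 bases before the gene start of the pair that was higher, Ccn1 (chr3:145649986-145650235, minus strand) and Btg2 (chr1:134079156-134079405, minus strand), beside Fos (chr12:85473640-85473889, plus strand) and Nr4a1 (chr15:101266596-101266845, plus strand). They are written from 5′ to 3′ on the gene's strand. Capitals mark matches, on either strand, to the CArG box bound by serum response factor, the cyclic AMP response element TGACGTCA, its core TGACG (which the full element contains), the AP-1 element TGANTCA, the EGR element GCGNGGGCG, the TEAD element GGAATG or the TATA box TATAAA.
Ccn1: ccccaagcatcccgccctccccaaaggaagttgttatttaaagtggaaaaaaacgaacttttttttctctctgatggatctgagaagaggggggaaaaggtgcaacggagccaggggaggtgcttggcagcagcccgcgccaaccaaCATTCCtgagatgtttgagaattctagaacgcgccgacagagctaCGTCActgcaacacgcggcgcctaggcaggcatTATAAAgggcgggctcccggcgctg
Btg2: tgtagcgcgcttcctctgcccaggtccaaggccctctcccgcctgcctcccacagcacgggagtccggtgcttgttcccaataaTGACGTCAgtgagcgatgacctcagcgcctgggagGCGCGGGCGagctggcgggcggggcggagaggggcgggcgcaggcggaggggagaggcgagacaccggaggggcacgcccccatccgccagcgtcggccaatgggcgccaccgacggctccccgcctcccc
Fos: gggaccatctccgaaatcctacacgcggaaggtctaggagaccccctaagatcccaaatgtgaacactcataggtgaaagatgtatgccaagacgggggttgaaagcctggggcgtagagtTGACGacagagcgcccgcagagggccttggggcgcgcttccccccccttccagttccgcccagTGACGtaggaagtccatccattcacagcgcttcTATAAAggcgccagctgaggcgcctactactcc
Nr4a1: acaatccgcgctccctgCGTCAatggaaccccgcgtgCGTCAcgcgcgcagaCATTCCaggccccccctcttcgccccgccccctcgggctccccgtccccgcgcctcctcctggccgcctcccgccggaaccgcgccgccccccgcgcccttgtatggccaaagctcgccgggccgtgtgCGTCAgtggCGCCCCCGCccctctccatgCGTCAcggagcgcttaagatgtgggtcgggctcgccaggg
The core TGACG stood in 6 of the 7 promoters, while 17.8% of all 32851 promoters of that length hold it. The full cyclic AMP response element stood in 1, that of Btg2 (1.55% of all promoters). An EGR element stood in 3 of the 7 (4.7% of all), a TEAD element in 2, Ccn1 and Nr4a1 (12.6% of all), and a TATA box in 2, Ccn1 and Fos (12.4% of all). The CArG box and the AP-1 element were in none of the 7 windows (1.47% and 6.75% of all). A match is a stretch of letters and not a binding site, and these windows are short.

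Per kilobase, the members differed widely in level. Egr1, a zinc finger transcription factor, averaged 20.2 RPKM over the 9 libraries and Jun, an AP-1 subunit, 13.3 RPKM. Fos, which pairs with Jun in AP-1, averaged 5.70 RPKM, Arc, a synaptic protein of dendrites, 4.77 RPKM, Junb 3.55 RPKM and the orphan nuclear receptor Nr4a1 3.06 RPKM. Ccn1, Btg2 and Ier2 averaged 2.57, 2.53 and 1.66 RPKM. Egr1 lay above Jun, Jun above Fos, Junb above Nr4a1 and Btg2 above Ier2 in 9 of 9 libraries. Fos lay above Arc and Arc above Junb in 8 of 9 libraries, and Nr4a1 above Ccn1 in 7 of 9, the exceptions being C9orf72 ASO replicates 1 and 2. Ccn1 and Btg2 had no fixed order, with Ccn1 the higher in 3 of 9 libraries. Fosb, a further AP-1 subunit, was listed at 0.1 in all C9orf72 ASO and control ASO libraries and at 0.552, 0.557 and 0.1 RPKM after saline. It was therefore not tested.

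**Figure D1:**
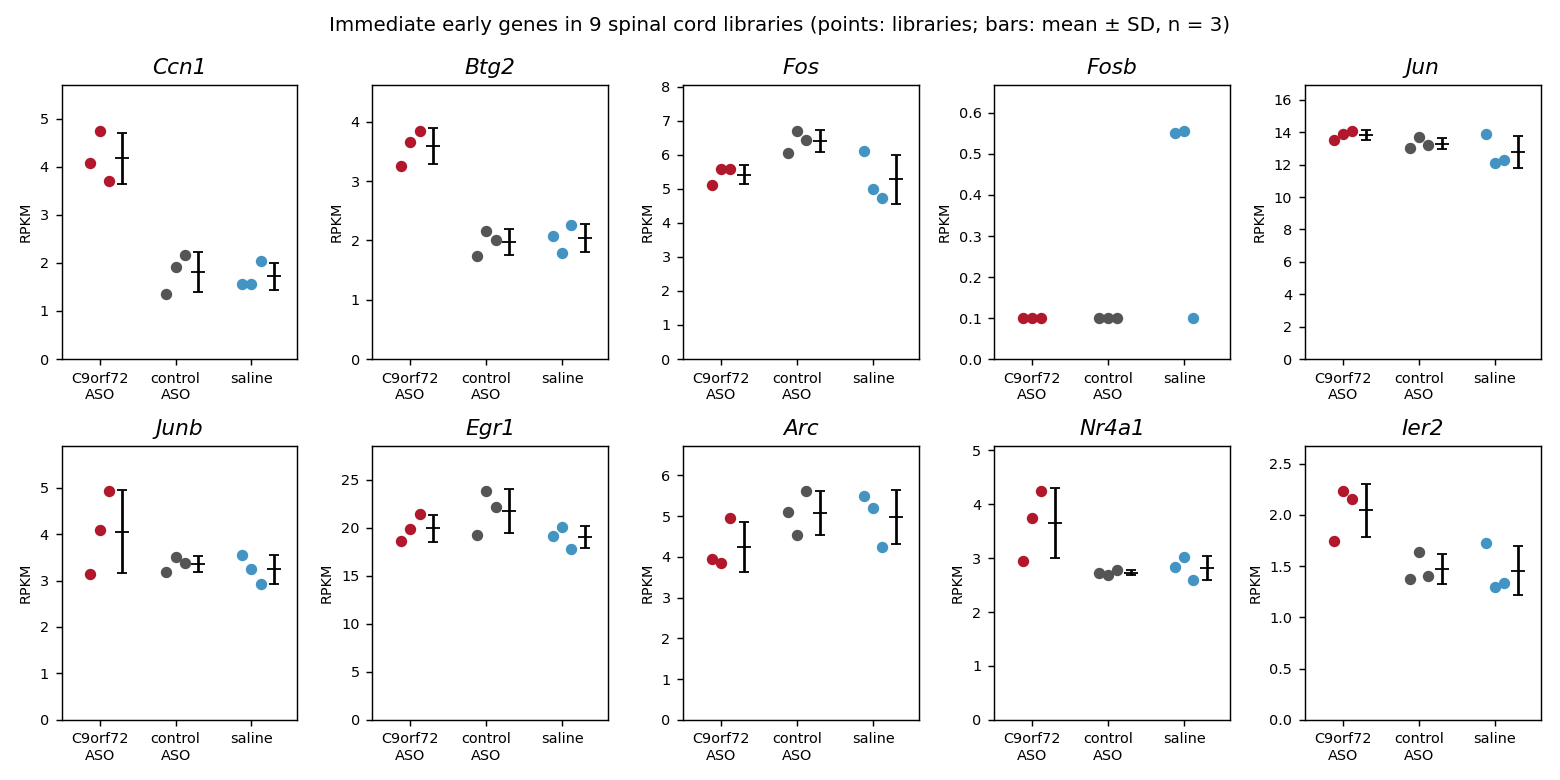
RPKM (linear axis from 0) of the 10 immediate early genes in each library, by group, with mean and SD of 3 libraries beside the points (none for Fosb, which is listed at 0.1 where it was under 0.5). Ccn1, Btg2 and Ier2 are the genes whose 3 C9orf72 ASO libraries all lie above the 6 control libraries.

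Ccn1 (ENSMUSG00000028195) encodes a secreted matrix protein that binds integrins. It stood at 4.07, 4.75 and 3.71 RPKM after the C9orf72 ASO, against 1.35, 1.91 and 2.16 RPKM after the control ASO and 1.55, 1.57 and 2.04 RPKM after saline. The C9orf72 ASO libraries lay above all 6 others, and the control groups overlapped. The mean of the C9orf72 ASO group was 4.17 ± 0.529 RPKM, that of the control ASO group 1.81 ± 0.414 RPKM and that of the saline group 1.72 ± 0.274 RPKM (SD, n = 3 each). On the log2(RPKM + 0.1) scale the control ASO was exceeded by 1.18, with an SE of 0.16, or 2.27-fold (limma, adjusted p = 0.022). Saline was exceeded by 1.24, with an SE of 0.16, or 2.35-fold (limma, adjusted p = 0.0211). In bulk tissue, a change in the number of cells that make an RNA and a change in the RNA per cell cannot be told apart.

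Btg2 (ENSMUSG00000020423), an antiproliferative protein that recruits the CCR4-NOT deadenylase, stood at 3.26, 3.65 and 3.85 RPKM after the C9orf72 ASO, against 1.73, 2.16 and 2.01 RPKM after the control ASO and 2.07, 1.79 and 2.26 RPKM after saline. These libraries, too, lay above all 6 others. Their log2 difference from the control ASO was 0.84, with an SE of 0.11, or 1.78-fold (limma, adjusted p = 0.018). That from saline was 0.79, with an SE of 0.11, or 1.73-fold (limma, adjusted p = 0.031). Against both control groups together Ccn1 was at 1.21 (SE 0.14) and Btg2 at 0.81 (SE 0.09), each with an adjusted p = 0.00685 (limma).

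Ccn1 and Btg2 were thus 2 of 9 tested members past the threshold in each of these comparisons, both higher. Over all genes 0.0693% passed against the control ASO (0.0347% higher, 0.0347% lower), and against saline likewise 0.0693% (0.0347% higher, 0.0347% lower). Against both control groups 0.173% passed (0.0762% higher, 0.097% lower). Since the pair was put in the set for this difference, nothing is read from that count. Which libraries were in the fit mattered. Against the control ASO neither gene passed when its replicate 1, or the second C9orf72 ASO library, was left out. There 1 of the pair passed without the first C9orf72 ASO library (Btg2), without control ASO replicate 2 (Btg2) and without control ASO replicate 3 (Ccn1). Against saline neither passed when saline replicate 1, saline replicate 2 or either of the first 2 C9orf72 ASO libraries was left out. Differences kept their direction, at 1.0 to 1.32 for Ccn1 and 0.75 to 0.90 for Btg2 against the control ASO.

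**Figure D2:**
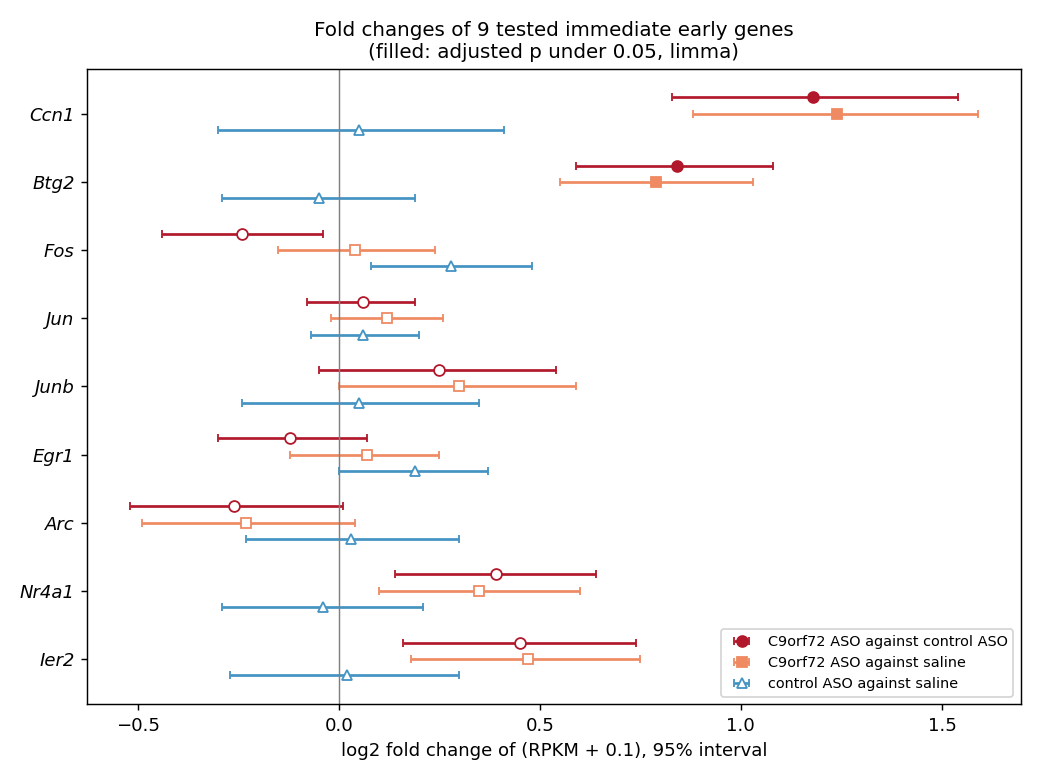
Log2 fold change of (RPKM + 0.1) with its 95% interval for the 9 tested members in 3 comparisons, with filled markers where the adjusted p was under 0.05 (limma). Ccn1 and Btg2 lie near 1.2 and 0.8 in both comparisons of the C9orf72 ASO and near 0 for the control ASO against saline.

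None of the other 7 tested members passed the threshold in a comparison. Ier2, a small nuclear protein of the growth factor response, came nearest to the pair in its values. It stood at 1.75, 2.23 and 2.16 RPKM after the C9orf72 ASO, against 1.37, 1.64 and 1.4 RPKM after the control ASO and 1.73, 1.30 and 1.34 RPKM after saline. All 3 C9orf72 ASO libraries were above the other 6, narrowly so for replicate 1 (1.75 RPKM beside 1.73 RPKM in saline replicate 1). The difference was 0.45 from the control ASO (95% interval 0.16 to 0.74, adjusted p = 0.246, limma) and 0.47 from saline (0.18 to 0.75, adjusted p = 0.207, limma). By an exact permutation test of the C9orf72 ASO libraries against the other 6 (two-sided), p = 0.0119, the smallest that 84 splits allow. This p largely restates that order and is no separate support. In the remaining tested members besides Ccn1 and Btg2 the same permutation test gave p from 0.0238 (Nr4a1) to 0.81 (Egr1). Ier2 was 1 of the 7 members besides Ccn1 and Btg2 with all C9orf72 ASO libraries on top, an order found in 2.82% of all genes tested, and in 0 of the 7 were all 3 at the bottom (5.05% of genes). Ier2 also had the fewest reads of the tested members, an implied 193 to 404 per library.

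Nr4a1 and Junb shared an uneven pattern within the C9orf72 ASO group. Nr4a1 stood at 2.95, 3.75 and 4.24 RPKM after the C9orf72 ASO, against 2.72, 2.69 and 2.78 RPKM after the control ASO and 2.84, 3.02 and 2.59 RPKM after saline. Replicates 2 and 3 were above every control library, and replicate 1 was below saline replicate 2. Its difference was 0.39 from the control ASO (95% interval 0.14 to 0.64, adjusted p = 0.246, limma) and 0.35 from saline (0.10 to 0.60, adjusted p = 0.244, limma). Junb, an AP-1 subunit that can restrain Jun, stood at 3.15, 4.09 and 4.92 RPKM after the C9orf72 ASO, against 3.18, 3.51 and 3.37 RPKM after the control ASO and 3.55, 3.25 and 2.92 RPKM after saline. Here replicate 1 fell among the controls, and replicates 2 and 3 stood above them. Its difference from the control ASO was 0.25 (95% interval -0.05 to 0.54, adjusted p = 0.429, limma). Without C9orf72 ASO replicate 1 the differences from both control groups were 0.51 for Nr4a1 (adjusted p = 0.0808, limma) and 0.44 for Junb (adjusted p = 0.322, limma). Without replicate 3 they were 0.26 (adjusted p = 0.179) and 0.12 (adjusted p = 0.559).

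The best known activity genes showed no such difference. Fos stood at 5.10, 5.57 and 5.58 RPKM after the C9orf72 ASO, against 6.06, 6.71 and 6.44 RPKM after the control ASO and 6.10, 5 and 4.73 RPKM after saline. The C9orf72 ASO libraries were below those of the control ASO and within the range of saline. The difference was -0.24 from the control ASO (95% interval -0.44 to -0.04, adjusted p = 0.297, limma) and 0.04 from saline (-0.15 to 0.24, adjusted p = 0.863, limma). The control ASO itself lay 0.28 above saline (0.08 to 0.48, adjusted p = 0.794, limma). Egr1 stood at 18.6, 19.9 and 21.4 RPKM after the C9orf72 ASO, against 19.3, 23.8 and 22.2 RPKM after the control ASO and 19.2, 20.1 and 17.8 RPKM after saline, and the groups overlapped. Its difference was -0.12 from the control ASO (95% interval -0.30 to 0.07) and 0.07 from saline (-0.12 to 0.25).

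Jun was the steadiest member, at 13.5, 13.9 and 14.1 RPKM after the C9orf72 ASO, against 13, 13.7 and 13.2 RPKM after the control ASO and 13.9, 12.1 and 12.3 RPKM after saline. The difference from the control ASO was 0.06 (95% interval -0.08 to 0.19), and the highest library was 1.17 times the lowest. Arc stood at 3.94, 3.85 and 4.95 RPKM after the C9orf72 ASO, against 5.11, 4.53 and 5.61 RPKM after the control ASO and 5.5, 5.2 and 4.24 RPKM after saline. C9orf72 ASO replicates 1 and 2 were the lowest of the 9 libraries, and the third lay among the controls. Its differences were -0.26 from the control ASO (95% interval -0.52 to 0.01, adjusted p = 0.364, limma) and -0.23 from saline (-0.49 to 0.04, adjusted p = 0.427, limma).

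**Figure D3:**
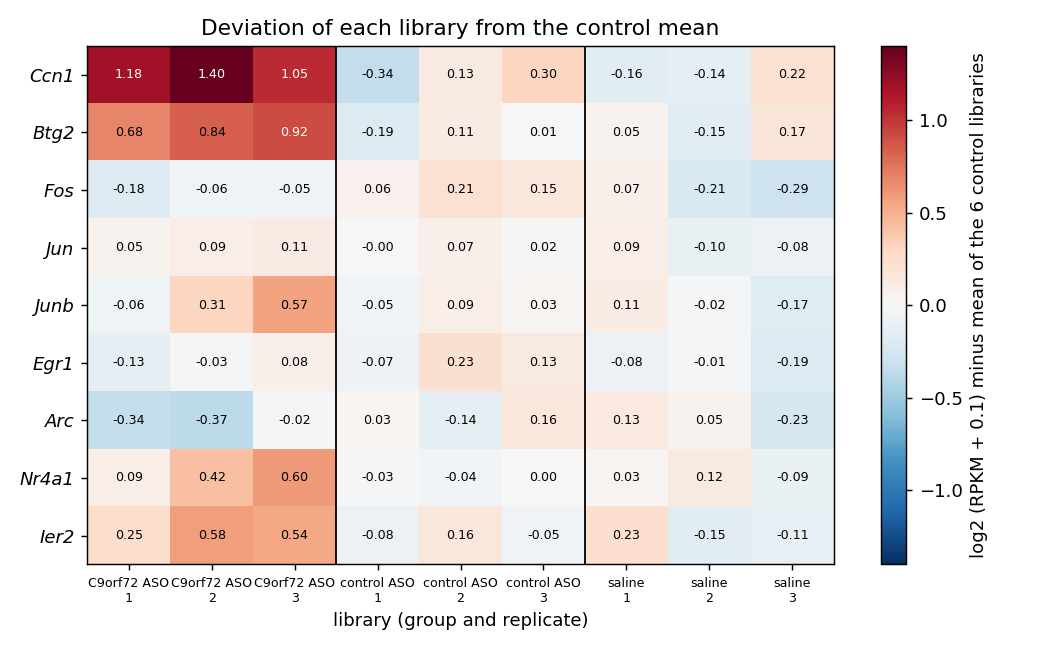
Log2(RPKM + 0.1) of each tested member in each library minus the mean of the 6 control libraries, with C9orf72 ASO libraries at the left. Ccn1 (1.05 to 1.4) and Btg2 (0.68 to 0.92) deviate in all 3, while Junb and Nr4a1 deviate upward in replicates 2 and 3. In replicate 1 Junb lies at -0.06 and Nr4a1 at 0.09.

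The ratios of Ccn1 and Btg2 to the other members within each library are given as a description with no test, since both numerators were chosen for their rise in these libraries. The ratio of Ccn1 to Fos was 0.798, 0.852 and 0.664 after the C9orf72 ASO, against 0.223, 0.284 and 0.335 after the control ASO and 0.254, 0.314 and 0.431 after saline. Of 14 such ratios, Ccn1 or Btg2 over each of the other 7 tested members, 13 were higher in all C9orf72 ASO libraries than in the other 6. The exception was Btg2 over Ier2, which stood at 1.86, 1.63 and 1.78 after the C9orf72 ASO, against 1.27, 1.32 and 1.44 after the control ASO and 1.2, 1.38 and 1.68 after saline. On the log2 scale the mean differences from the 6 controls ran from 0.35 (Btg2 over Ier2) to 1.45 (Ccn1 over Arc).

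The 7 tested members other than Ccn1 and Btg2 were also counted by p unadjusted for the number of genes. Against the control ASO 2 of 7 had p under 0.05 and were higher (Nr4a1 and Ier2), where 6.39% of all genes did, and 1, Fos, was lower (7.71% of genes). Against saline 3 of 7 were higher, Junb being the third (3.79% of genes), and 0 were lower (10.2%). Against both control groups the same 3 were higher (5.87% of genes) and 1, Arc, was lower (10.9% of genes). These 3 comparisons use the same C9orf72 ASO libraries. Libraries of the C9orf72 ASO and the control ASO did not overlap in 3 of the 7 members (22% of genes), and those of the C9orf72 ASO and saline in 1 of 7 (18% of genes). The median difference of the 7 was 0.06 against the control ASO and 0.12 against saline, beside medians of -0.01 and -0.03 over all genes tested. Between the control ASO and saline 0 of 9 tested members passed (limma; 0.00693% of all genes did), the median of the 7 was 0.05, and Fos and Egr1 had p under 0.05 unadjusted, both higher after the control ASO. At that level 5.35% of all genes differed between these groups, 1.37% higher and 3.98% lower. Their libraries overlapped in all 9 members (10.3% of genes did not overlap).

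Members that vary from library to library within the groups were compared by the correlation of their deviations from the group means over the 9 libraries, 36 pairs in all. Fos and Jun deviated together (r = 0.95, exact permutation p = 0.0139, and rho = 0.90, exact permutation p = 0.0231; r = 0.90 without the 2 libraries farthest from the median of Fos). Fos and Junb had r = 0.67 (exact permutation p = 0.00463) and rho = 0.92 (exact permutation p = 0.00463), with r = 0.72 without such 2 libraries. Ccn1 and Fos had r = -0.09 (exact permutation p = 0.847) and rho = -0.20 (exact permutation p = 0.639). Ccn1 and Btg2 had r = 0.60 (exact permutation p = 0.19) and rho = 0.52 (exact permutation p = 0.245). Their r was 0.45 without the 2 libraries farthest from the median of Ccn1. No pair passed after adjustment over the 36 pairs, the lowest adjusted p being 0.167. Permutation within the groups allows no p under 0.00463, and a single pair at that value is adjusted to 0.167. One pair alone could therefore not pass, and nothing is read from the lack of a call.

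Of 44 other immediate early genes listed for comparison, 41 were in the table and 40 were tested. By limma 0 of 40 passed in any comparison. At p under 0.05 unadjusted, 2 were higher and 2 lower against the control ASO, and 4 were higher and 0 lower against saline. Of all genes tested, 6.39% were higher and 7.71% lower at that level against the control ASO. Against saline 3.79% of all genes were higher and 10.2% lower. The median difference of the 40 was -0.00 against the control ASO and -0.02 against saline, beside -0.01 and -0.03 over all genes. Dusp1, a phosphatase that switches off MAP kinases, stood at 7.82, 10.9 and 11.3 RPKM after the C9orf72 ASO, against 5.61, 7.06 and 7.57 RPKM after the control ASO and 6.02, 5.93 and 6.68 RPKM after saline. All C9orf72 ASO libraries were the higher, again with replicate 1 the lowest of them, an order found in 2.82% of all genes tested. Atf3 and Plk2 of the list shared that order, and none had the reverse. The difference of Dusp1 from both control groups was 0.61 (SE 0.12, adjusted p = 0.0739, limma). Fosl2, an AP-1 subunit related to Fos, differed by -0.25 (SE 0.10) where the control ASO was the comparator, with adjusted p = 0.295 in limma, and by -0.04 where saline was. Further Nr4a, Egr and Jun genes of the list, named after their values were seen, were Nr4a2, Nr4a3, Egr3 and Jund. From the control ASO they differed by -0.08, -0.29, -0.20 and -0.15 (adjusted p = 0.863, 0.402, 0.863 and 0.604, limma). From saline they differed by 0.03, -0.12, 0.62 and -0.23, with Egr3 listed at 0.1 in saline replicate 3.

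**Figure D4:**
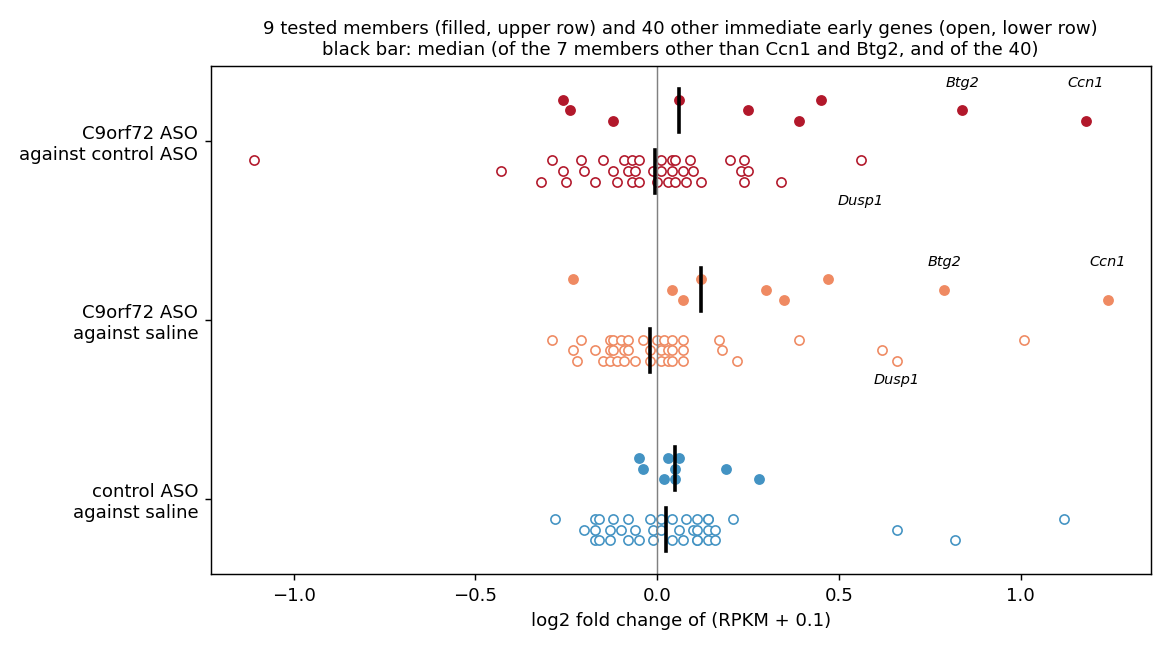
Log2 fold change of (RPKM + 0.1) of the 9 tested members (filled) and of 40 other immediate early genes (open) in 3 comparisons, with black bars at the medians of the 40 and of the 7 members other than Ccn1 and Btg2. The medians of the 7 are 0.06, 0.12 and 0.05 from the top row down, beside -0.00, -0.02 and 0.03 for the 40.

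Genes around the members were listed by role as well. Of 31 kinases and transcription factors that act upstream, 0 passed against the control ASO (limma). At p under 0.05 unadjusted 8 were lower and 0 higher, where 7.71% and 6.39% of all genes were. The median of the 31 was -0.10, beside -0.01 over all genes. These all-gene values serve for the lists below too. Over 13970 genes, differences from the control ASO fell with exon length (r = -0.23). Against saline r was -0.04, with 9 of the 31 lower and 0 higher at that level (10.2% and 3.79% of all genes). The part of length in these lists was not tested. The values that follow are against the control ASO. Crebbp, a coactivator of CREB, was at -0.24 (SE 0.08, adjusted p = 0.254, limma). Elk4, a partner of serum response factor, was at -0.25 (SE 0.07, adjusted p = 0.247, limma). Of 15 tested genes of YAP and TEAD, which drive Ccn1 in many cells, and their targets, 0 passed (limma; 1 at p under 0.05 unadjusted, Axl, a receptor kinase, at -0.13 with adjusted p = 0.35). Crim1, also of that list, was at -0.17. Of 17 genes of p53, a known activator of Btg2, and its targets, 0 passed (limma; 1 at p under 0.05 unadjusted, Zmat3, at -0.19 with adjusted p = 0.286). The cell cycle inhibitor Cdkn1a was at 0.25 (SE 0.12, adjusted p = 0.366, limma). Of 7 relatives of Btg2 and Ccn1, 0 passed (limma; 1 at p under 0.05 unadjusted), with Tob1 at -0.27 (SE 0.09, adjusted p = 0.265, limma). Ccn5 was above 0.5 RPKM in 3 libraries, C9orf72 ASO replicates 1 and 2 and saline replicate 1. Of 17 cytoskeletal targets of serum response factor 0 passed (limma; 3 at p under 0.05 unadjusted), and the filament gene Vim was at 0.36 (SE 0.11, adjusted p = 0.247, limma) and the adhesion gene Zyx at -0.24 (SE 0.08, adjusted p = 0.257, limma).

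Genes with the pattern most like that of a member were ranked by Pearson r over the 9 libraries among 12826 named genes that averaged 1 RPKM or more, as a description of likeness. For Ccn1 they were Cetn2 (0.936), Meig1 (0.934), Rsu1 (0.934), Ppp1r17 (0.932) and Eif2s2 (0.926). For Btg2 they were Cetn2 (0.970), Atp5f1 (0.965), Eci2 (0.953), Apold1 (0.946) and Tyrobp (0.946). For Fos they were Atf1 (0.904), Dusp3 (0.872), Nrep (0.872), Chsy1 (0.857) and Ccdc142os (0.854). Cetn2, a centrosome protein gene, headed both of the first lists, with 17.5, 18.3 and 18.2 RPKM after the C9orf72 ASO, against 15.0, 15.9 and 15.7 RPKM after the control ASO and 15.6, 14.3 and 15.4 RPKM after saline. Its difference from both control groups was 0.24 (SE 0.05, adjusted p = 0.09, limma). Here r holds the difference between groups for which Ccn1 and Btg2 were chosen, and takes no account of its size. The test of Cetn2 is therefore no separate support.

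Sums over markers of cell types differed between groups in some lists and overlapped in others. Over 6 astrocyte genes the sums were 1418 to 1551, 1406 to 1461 and 1407 to 1615 RPKM (C9orf72 ASO, control ASO, saline). Over 6 oligodendrocyte genes they were 5578 to 6413, 5944 to 6211 and 6088 to 7155 RPKM in the same order. Summed over 11 endothelial genes, the level was 73.1 to 81.8 RPKM after the C9orf72 ASO, against 71.6 to 91.4 RPKM after the control ASO and 92 to 110 RPKM after saline. Over 9 pericyte and smooth muscle genes it was 43.2 to 49.1 RPKM after the C9orf72 ASO, against 47.8 to 61.9 RPKM after the control ASO and 64.2 to 83.0 RPKM after saline. Of the 11 endothelial genes, 10 were lower against the control ASO and 11 against saline (medians -0.24 and -0.55). Of the 9 pericyte and smooth muscle genes, 7 and 8 were lower (medians -0.14 and -0.34). The part of vessel cells in the levels of the members was not tested. Over 7 genes of meninges and fibroblasts the sum was 255 to 320 RPKM after the C9orf72 ASO, against 240 to 290 RPKM after the control ASO and 244 to 336 RPKM after saline. A sum is ruled by its most abundant genes. Of the 6 tested, 5 were lower and 1 higher in each comparison (medians -0.05 against the control ASO and -0.48 against saline). Over 10 microglial genes the sum was 224 to 237 RPKM after the C9orf72 ASO, against 177 to 191 RPKM after the control ASO and 174 to 198 RPKM after saline. Differences were positive in 10 of 10 genes against the control ASO, and in 8 of 10 against saline, where 2 were negative. Their medians were 0.29 and 0.33, beside -0.01 and -0.03 over all genes tested. The threshold was passed by 0 against the control ASO, 1 against saline (Tyrobp) and 2 against both control groups (limma). Over all genes 0.0693%, 0.0693% and 0.173% passed in these comparisons. The 2 called against both control groups were Tyrobp, a signalling adaptor (0.62, SE 0.08, adjusted p = 0.0173, limma), and C1qb, a complement subunit (0.46, SE 0.07, adjusted p = 0.0402, limma). The part of microglia in the levels of Ccn1 and Btg2 was not tested. Over 13 neuronal genes it was 2824 to 3177 RPKM after the C9orf72 ASO, against 3192 to 3359 RPKM after the control ASO and 2998 to 3163 RPKM after saline. Over 8 blood genes, control ASO replicate 1 stood apart at 2929 RPKM, against 727 to 1265 RPKM in the others. Without that library the difference from the control ASO was 1.0 for Ccn1 (adjusted p = 0.051, limma) and 0.75 for Btg2 (adjusted p = 0.0774, limma). The cord was recognisable by Hoxc8, a gene of the trunk's cord level (60.5 to 95.4 RPKM over the 9 libraries), Chat of motor neurons (5.28 to 6.57 RPKM) and the myelin gene Mbp (1948 to 2799 RPKM).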

How the data were processed

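Spinal cord RNA of 9 mouse libraries in 3 groups of 3 was analysed from the authors' deposited table. Per the labels' protocols, RNA was extracted with Trizol and libraries were strand specific. Per the submitters' processing notes, the tools were cutadapt 1.2.1, an adapter trimmer, and the aligner GSNAP, with build mm9. For the counter, its use of strand, the annotation and the gene filter, nothing was stated in the labels or header. The header names no unit, and from their range and steps the deposited values were read as the authors' RPKM. Of all values 3.87% stood at 0.1 and none between 0.1 and 0.5. Steps between low values of short genes put library depth at 90.3 to 124.2 M reads, and counting error at the fewest reads of a tested member (193, Ier2) was 7.2%. At these depths 56.1 to 68.5% of such values, by library, lay within 0.1 of a whole read. Exon lengths were from GENCODE and may differ from the authors' lengths, so depths, reads and counting error are approximate.

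Symbols were matched for 14321 of 14831 gene IDs. A gene was tested if 3 or more libraries reached 0.5 RPKM. The test was limma 3.58.1, run in R 4.3.3 (mean trend, robust estimation, 1 fit of all libraries) on log2(RPKM + 0.1), a scale that understates changes of low genes, with Benjamini-Hochberg adjustment over all 14430 genes and a threshold of 0.05. It was checked on simulated data. The labels do not say whether each library is a separate animal, so the p-values measure the spread between these samples. Members and lists were chosen with earlier results of these data known. Of each pathway list up to 4 genes past the threshold in any comparison were named, or, with none, the 2 of smallest p against the control ASO, and for likeness the 5 genes with the highest r. The rule covers no marker list, and the microglial genes past the threshold were named after their values were seen. Alternatives were a pseudocount of 1, no filter, other scalings, limma without trend and robust estimation, only the groups compared and each library left out. Raising values at 0.1 to 0.5 RPKM and removing length and GC trends were added after seeing the data. Promoters came from RefSeq (GRCm38.p6), and no coordinates were converted.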

Additional observations from a re-analysis of the deposited data

How the results depend on the processing

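No paired analysis was possible because the labels give the libraries codes and no replicate numbers shared between groups. The main count of members past the threshold was 2 against the control ASO, saline and both control groups, and 0 for the control ASO against saline. Without mean trend and robust estimation it was 1 against the control ASO (Btg2) and 0 against saline. With only the groups compared it was 1 against saline (Ccn1). With 1 library left out it ran from 0 to 2 against the control ASO, 0 to 2 against saline and 1 to 2 against both control groups (1 without C9orf72 ASO replicate 1), and stayed at 0 for the control ASO against saline. A fit that leaves out a library has fewer samples, and further causes were not tested. Under a pseudocount of 1, no filter, median log ratio scaling, quantile normalization, raised low values and removed length and GC trends the called members were Ccn1 and Btg2 in each comparison of the C9orf72 ASO. Removing length and GC trends moved uncalled members. Against both control groups Nr4a1 was then at 0.47 (adjusted p = 0.0674, limma), beside 0.37 in the main fit. Ier2 was at 0.48 (adjusted p = 0.106, limma) beside 0.46, and Junb at 0.37 (adjusted p = 0.117, limma) beside 0.27. Jun was at 0.15 (adjusted p = 0.178, limma) beside 0.09, Fos at -0.13 beside -0.10 and Arc at -0.14 beside -0.24. Signs that changed were of small uncalled differences. Egr1 against both control groups was at 0.09 with length and GC trends removed and ran from -0.08 to 0.03 with a library left out, and Fos against saline ran from -0.03 to 0.15. For the control ASO against saline, Btg2 and Nr4a1 were at 0.00 with quantile normalization and Nr4a1 at 0.04 with length and GC trends removed. With a library left out that comparison ran from -0.08 to 0.24 for Ccn1, -0.13 to 0.04 for Btg2, -0.02 to 0.12 for Junb, -0.08 to 0.11 for Arc, -0.10 to 0.01 for Nr4a1 and -0.06 to 0.14 for Ier2. By the implied reads, counting error of the tested members was at most about 7.2% per library, and the replacement of values under 0.5 RPKM left Fosb without a usable level.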

Other observations

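Beside Dusp1, the other immediate early genes with p under 0.05 unadjusted against saline, named after their values were seen, were Atf3, a stress-induced transcription factor (log2 difference 1.01, adjusted p = 0.33, limma), Zfp36, which destabilises AU-rich RNAs (0.39, adjusted p = 0.244, limma), and Plk2, a kinase induced by neuronal activity (0.17, adjusted p = 0.287, limma). Against the control ASO they were Tiparp (0.24, adjusted p = 0.333, limma), higher, and Dusp6 (-0.26, adjusted p = 0.318, limma) and Fosl2, lower. Atf3 was at 0.884, 0.783 and 0.996 RPKM after the C9orf72 ASO, against 0.625, 0.632 and 0.775 RPKM after the control ASO and 0.682, 0.1 and 0.65 RPKM after saline, with saline replicate 2 listed at 0.1. Npas4, an activity gene used mainly by neurons, was at 1.04, 0.931 and 1.13 RPKM after the C9orf72 ASO, against 0.874, 1.15 and 1.08 RPKM after the control ASO and 1.28, 1.05 and 1.09 RPKM after saline.

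Apold1, which is known as an early response gene of vascular cells, was named through its likeness to Btg2. It was at 2.93, 3.14 and 3.21 RPKM after the C9orf72 ASO, against 1.32, 2.29 and 1.46 RPKM after the control ASO and 1.6, 1.5 and 2.14 RPKM after saline, with a difference from both control groups of 0.84 (SE 0.16, adjusted p = 0.0657, limma). Since a gene picked for likeness to Btg2 in these libraries tends to share its group difference, this is no separate support.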
